A study of Canis lupus familiaris with 23 samples.

Results

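Canine oral squamous cell carcinoma (COSCC), a carcinoma of the epithelium that lines the dog's mouth, was compared with healthy gingiva by bulk RNA sequencing. The comparison used 18 of the 23 libraries of the series, all 11 from COSCC and all 7 from gingiva, chosen by their group labels. The other libraries came from a different oral tumor and entered only as an alternative setting. The carcinomas came from the maxilla in 7 cases and the mandible in 4, and 1 gingiva sample came from the maxilla, with the jaw of the other 6 not determined. The labels also carry a two-letter code whose meaning they do not give, FS for 6 carcinomas and 4 gingiva samples and MC for 5 and 3. Carcinomas came from mixed-breed dogs, an Alaskan Malamute, a Dachshund, a Labradoodle, Labrador Retrievers, a Yorkshire Terrier and a Boxer. Gingiva came from mixed-breed dogs, a Staffordshire Bull Terrier, a Catahoula Leopard Dog and Labrador Retrievers. Neither age, tumor stage nor treatment is in the labels used here, and the library name of COSCC replicate 6 joins 2 sample numbers. Nothing says outright that every library came from a separate dog, so the p-values measure the spread between these samples.

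Gingiva is covered by a stratified squamous epithelium, in which cells divide in the basal layer and are filled with keratins and other structural proteins as they move to the surface. A few of these proteins are made in great amounts, so that a small number of genes can fill much of the RNA of the tissue. Squamous carcinomas arise from this epithelium, keep its programme of maturation to different degrees from tumor to tumor, and grow with a stroma of fibroblasts, vessels and immune cells. In whole tissue, fewer cells of a type and less RNA per cell cannot be told apart. The deposited table gives Ensembl dog gene identifiers without symbols, and 0 of its 30951 identifiers matched the gene table used for names. Epithelial, stromal and immune markers could therefore not be read in these libraries, the labelled tissue was not checked against markers, and genes are described here by level, direction and the number of carcinomas that carried a change.

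Total counts ran from 15120326 to 15978392 in gingiva and from 15350751 to 16813220 in COSCC. Levels are given as CPM, a gene's counts as a share of the library's total after scaling by edgeR's TMM factors, which align the bulk of the genes between libraries. They are not corrected for gene length, so ranks of genes are ranks of counts. Gingiva replicate 3 stood apart from the other gingiva libraries. On the first principal component, which held 30.5% of the variance, it scored 20.02, against 68.8 to 98.2 for the other 6 gingiva libraries and -68.6 to -14.9 for the carcinomas. Among the carcinomas, replicate 3 was least like the rest, with a mean correlation across genes of 0.804 with the other carcinomas, where the highest was 0.898. The number of changed genes, the changes shared by all carcinomas and the balance of directions by level are also given without gingiva replicate 3. Most other counts set against the gingiva range, such as how many carcinomas carried a change, are given only with it.

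The first question was how much of the transcriptome differed between carcinoma and gingiva. After low-count genes were removed, 14564 genes were tested, and 4317 of them (29.6%) had an adjusted p under 0.05 in edgeR's quasi-likelihood test. Of these, 2356 (16.2%) were higher in COSCC and 1961 (13.5%) were lower. At least a 2-fold change was fitted for 1703 of the genes that rose and for 42.3% of those that fell. Genes that fell held 31.5% ± 4.24 of all counts in gingiva (SD, n = 7) and 14.9% ± 2.25 in COSCC (SD, n = 11). Genes that rose held 4.86% ± 1.10 of the counts in gingiva and 15.3% ± 1.93 in COSCC (SD, n = 7 and 11). These shares describe genes chosen for their difference and carry no test. The balance of directions depended on the method. In limma voom, 3126 genes were higher and 3289 lower. Scaled by library totals alone, 3767 genes were higher and 885 lower, so that 81.0% of the changed genes were higher, against 54.6% with TMM, and the median over all tested genes moved from 0.09 to 0.32 on the log2 scale. With an adjusted p under 0.05, DESeq2 gave 5296 genes, and 4296 of the 4317 edgeR genes were among them with the same direction.

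Whether a change was shared by all carcinomas was read from the number of carcinoma libraries that lay outside the range of the 7 gingiva libraries. All 11 carcinomas lay above every gingiva library for 159 of the genes that rose (1.09% of genes tested) and below every gingiva library for 254 of those that fell (1.74%). Together, 2.84% of the genes tested had groups that did not overlap. The excess of shared falls over shared rises was turned by scaling, with 350 rises and 104 falls shared by all when library totals alone were used. Rises were most often carried by 7 carcinomas (411 genes) and falls by 10 (289 genes). At least 6 carcinomas lay outside the gingiva range for 80.6% of rises and 72.8% of falls. In the remaining 458 rises and 533 falls, 5 or fewer carcinomas left the range, and the values of the groups overlapped. These include 115 rises and 20 falls in which 1 to 5 carcinomas lay at least 4-fold beyond every gingiva library. The carcinomas spanned 16-fold or more in 103 of the 458 rises and 17 of the 533 falls.

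**Figure D1:**
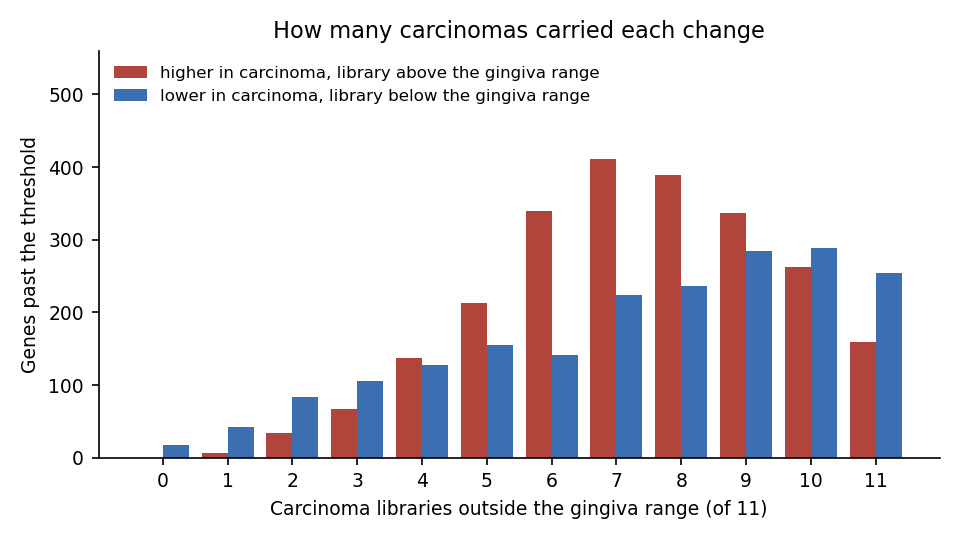
Genes past the threshold (vertical axis) by the number of the 11 carcinoma libraries that lay outside the range of the 7 gingiva libraries (horizontal axis), red for genes higher in carcinoma and blue for genes lower. Rises peak at 7 carcinomas with 411 genes, whereas 254 falls and 159 rises reach all 11. The plot uses TMM scaling, and with library totals alone 104 falls and 350 rises reach all 11.

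Rises and falls shared by all 11 carcinomas had different starting points, as did those carried by fewer. Grouped by the number of carcinomas outside the range, the latter had median gingiva levels of 51.0 to 57.9 CPM for falls and 5.19 to 9.73 CPM for rises. The shared falls had a median level of 78.0 CPM in gingiva and 25.4 CPM in COSCC, and the shared rises had 5.94 CPM in gingiva and 20.1 CPM in COSCC. Their median log2 fold changes were -1.68 and 1.74. The distance between the groups was small in most of these genes. Between the nearest carcinoma and the nearest gingiva library it was at least 2-fold in 5 shared rises and 37 shared falls, and at least 4-fold in 2 rises and 7 falls. Carcinomas still differed among themselves at the shared genes. Their highest and lowest levels were 16-fold or more apart in 68 of the 254 shared falls and in 11 of the 159 shared rises. The shared falls held 9.39% ± 2.13 of the counts in gingiva (SD, n = 7) and 1.57% ± 0.417 in COSCC (SD, n = 11). The shared rises took much less of the library, 0.205% ± 0.0377 in gingiva and 0.857% ± 0.155 in COSCC.

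With TMM scaling, the share of changes carried by all 11 carcinomas was listed by fold size. Of 49 genes that fell by 16-fold or more, 33 (67.3%) lay below gingiva in all 11 carcinomas. Of 91 genes that rose by 16-fold or more, 16 (17.6%) lay above gingiva in all 11. For changes of 4-fold to 16-fold the shares were 29.0% of 241 falls and 7.75% of 581 rises. These counts come from the calls themselves and no test was made of the difference. The fold compares group means of counts, so a few very high carcinomas can give a large rise. A large fall of the mean needs low counts in nearly all carcinomas, so the shares of rises and falls are not directly comparable. The strong rises were also the most uneven. Among rises of 16-fold or more the median SD between carcinomas was 2.23 log2 units, and the highest carcinoma exceeded the lowest by a median of 6.96 log2 units. Among rises under 2-fold these values were 0.43 and 1.41. Falls also grew more uneven with fold size, from a median SD between carcinomas of 0.37 under 2-fold to 1.56 log2 units at 16-fold or more. Gingiva varied less than the carcinomas at the strongest rises, with a median SD of 0.97 log2 units. That was still more than the gingiva value of 0.35 at rises under 2-fold.

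Single libraries decided how many changes counted as shared by all. Gingiva replicate 3 was the gingiva library nearest to the carcinomas in 50.6% of rises and 54.0% of falls, where no other gingiva library exceeded 13.7%. Without it, 450 rises and 569 falls were shared by all 11 carcinomas, against 159 and 254 with it. Leaving out any other of the 18 libraries gave 165 to 223 rises and 235 to 290 falls. The number of genes past the threshold was 5188 without gingiva replicate 3 and between 3197 and 4453 without any other library.

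Where all carcinomas except 1 left the gingiva range, the exception was unevenly spread over the tumors. COSCC replicate 7 was the exception in 63 of 263 such rises, followed by replicate 5 in 42. For falls the exception was replicate 5 in 61 of 289 genes and replicate 2 in 48. Replicates 8, 9 and 10 were seldom the exception, with 7 to 10 rises and 4 to 18 falls each. Counted over all genes past the threshold, a carcinoma lay outside the gingiva range in the direction of the change at 58.6% to 78.1% of them. Replicate 8 had the highest share and replicate 5 the lowest. Replicate 7 departed at 56.9% of the rises, the lowest share, but at 65.3% of the falls, the median share.

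The labelled jaw and code were set against these departures. The genes were called from the same carcinomas, so the larger group of each label weighed more in the calls. Mandibular carcinomas departed from gingiva at 2717 ± 211 genes (SD, n = 4) and maxillary carcinomas at 2974 ± 319 (SD, n = 7), a difference within the spread (exact two-sided permutation test, p = 0.182, adjusted 0.182 over 2 tests). Carcinomas coded FS departed at 3000.2 ± 341 genes (SD, n = 6) and those coded MC at 2736 ± 187 (SD, n = 5), which was also within the spread (exact two-sided permutation test, p = 0.149, adjusted 0.182). All 4 mandibular carcinomas were coded MC, so jaw and code are closely tied here.

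A second kind of change was carried by some carcinomas only. It was counted where 1 to 5 carcinomas lay at least 4-fold above, or below, every gingiva library while the median carcinoma stayed within the gingiva range. There were 570 such genes above gingiva (3.91% of genes tested) and 350 below (2.40%). A single carcinoma carried 422 of the 570 (74.0%) and 269 of the 350 (76.9%). Only 2 of the genes above gingiva and none of those below were carried by 5 carcinomas, and 5 and 4 genes were carried by 4. Most did not pass the test of group means, as was so for most genes tested. Of the 570, 115 were called higher, and of the 350, 20 were called lower and 2 higher. Over all genes tested, 16.2% were called higher and 13.5% lower. Genes that stood above gingiva in some tumors were mostly of low level, with a median of 5.65 CPM over the 18 libraries, and 24 of them averaged 100 CPM or more. Those below gingiva had a median of 16.1 CPM, and 55 averaged 100 CPM or more. In 78 of the genes above gingiva the highest carcinoma exceeded every gingiva library by 16-fold or more, and by up to 7.13 log2 units.

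**Figure D2:**
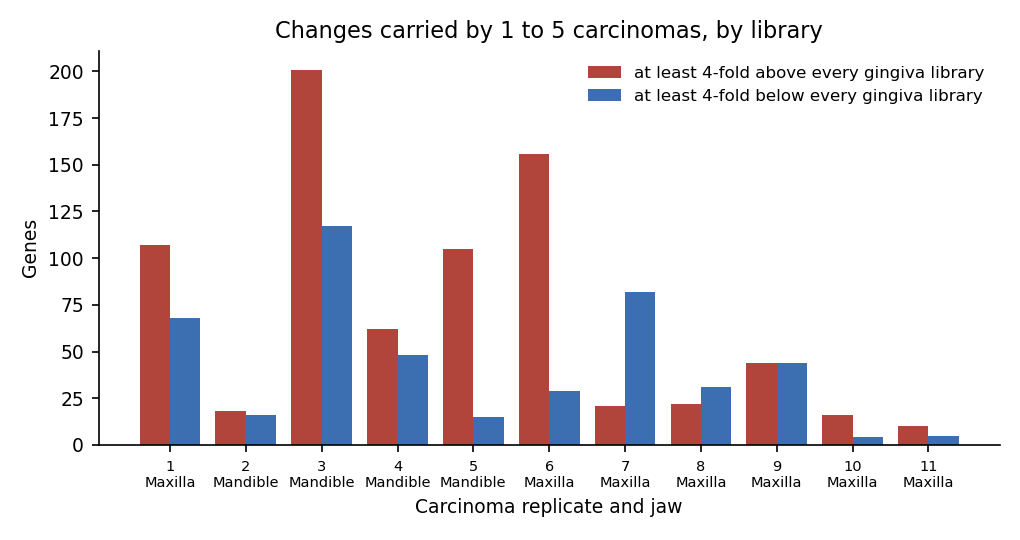
Number of genes (vertical axis) at which each carcinoma (horizontal axis, replicate and jaw) lay at least 4-fold above (red) or below (blue) every gingiva library, among genes so changed in 1 to 5 carcinomas. Replicate 3 holds 201 of the genes above gingiva and 117 of those below, and replicate 11 holds 10 and 5.

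These changes were concentrated in a few tumors. COSCC replicate 3 carried 201 of the 570 genes above gingiva, replicate 6 carried 156, replicate 1 carried 107 and replicate 5 carried 105. The other 7 carcinomas carried 10 to 62 each. Among genes below gingiva, replicate 3 carried 117, replicate 7 carried 82 and replicate 1 carried 68. Replicates 10 and 11 carried few of either kind. The pairs that most often stood above gingiva at the same gene were replicates 3 and 6 with 33 genes, 3 and 5 with 32, and 1 and 3 with 20. Below gingiva, replicates 1 and 3 shared 29 genes. Replicates 3 and 5 came from the mandible and 1 and 6 from the maxilla. Without replicate 3 the counts were 423 genes above gingiva and 279 below. More genes had a count in replicates 3 and 1 than in the other carcinomas, 20823 and 20323, and the part of this in the counts was not tested.

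Single libraries were also set against 6 gingiva libraries, now over all genes and with no condition on the other carcinomas, so that changes shared by the carcinomas count too. A gingiva library lay at least 4-fold above all of the other 6 at 2 to 45 genes (median 8) and below them at 4 to 70 genes (median 16). A carcinoma set against 6 gingiva libraries, averaged over the choices of 6, lay above them at 123 to 575 genes (median 243) and below them at 114 to 569 (median 320). The lowest carcinoma thus exceeded the highest gingiva library on both sides, which compares each library with gingiva and not the spread within each group. Over all genes tested, the median SD of a gene was 0.62 log2 units between carcinomas and 0.46 between gingiva libraries.

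The direction of change depended on the level of the gene. Genes were divided by their mean over the 18 libraries. Among the 4348 genes at 1 to 10 CPM, 21.0% rose and 7.80% fell. Among the 7652 genes at 10 to 100 CPM, 15.5% rose and 14.6% fell. At 100 to 1000 CPM the balance was turned, with 8.59% of 1887 genes higher and 23.3% lower, and among the 74 genes at 1000 CPM or more 9.46% were higher and 28.4% lower. The 603 genes under 1 CPM had 13.9% higher and 7.63% lower. The share of changed genes that were higher thus went from 73.0% at 1 to 10 CPM to 26.9% at 100 to 1000 CPM, and 7 rises stood against 21 falls at 1000 CPM and more. These directions hold for TMM scaling and not for library totals, as given next.

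**Figure D3:**
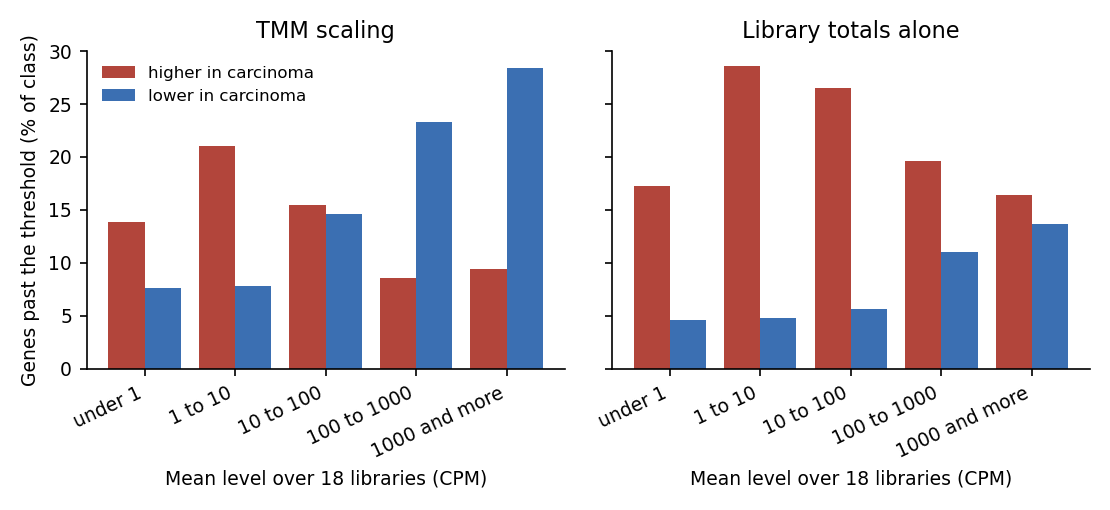
Share of the genes in each class of mean level (horizontal axis, CPM over the 18 libraries) that were past the threshold and higher (red) or lower (blue) in carcinoma, with TMM scaling on the left and library totals alone on the right. The right panel has more rises in every class, yet in both panels the share of falls is largest at 1000 CPM and more, 28.4% and 13.7%.

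Scaling moved the level at which falls outnumbered rises. With library totals alone rises outnumbered falls in every class, 85.7% of changed genes being higher at 1 to 10 CPM, 64.1% at 100 to 1000 CPM and 54.5% at 1000 CPM and more. The decline of that share from 1 to 10 CPM upward was therefore present under both scalings, while the turn to more falls than rises was not. The decline was also present without gingiva replicate 3, from 75.3% at 1 to 10 CPM to 36.7% at 1000 CPM and more, a setting chosen after seeing the data. With TMM, all 11 carcinomas shared 5 of 21 falls (23.8%) at 1000 CPM and more, 16.6% at 100 to 1000 CPM, 11.3% at 10 to 100 CPM, 14.2% at 1 to 10 CPM and 4.35% under 1 CPM. The share did not follow level steadily, and the differences were not tested. Of the rises, 0 of 7 were shared by all at 1000 CPM and more, and 5.90% to 7.41% in the lower classes. From the lowest class to the highest, the median log2 fold change of a rise was 2.01, 1.79, 1.15, 1.12 and 1.71, and that of a fall was -1.79, -1.57, -0.78, -0.78 and -1.04.

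The abundant genes of healthy gingiva were examined next. In gingiva 93 genes averaged 1000 CPM or more, and together they took 32.5% ± 4.65 of the counts (SD, n = 7), against 23.2% ± 3.98 in COSCC (SD, n = 11). Of the 93, 40 (43.0%) fell in COSCC, 3 (3.23%) rose and 50 did not pass the threshold, where 13.5% of all genes fell and 16.2% rose. Choosing genes for a high level in gingiva favours falls, so the shares are a description, and with library totals alone 20 of the abundant genes fell. The median log2 fold change was -0.65 over the 93 and 0.09 over all genes. Among the 40 falls, 25 were at least 2-fold, 8 at least 4-fold and 3 at least 16-fold, and 8 lay below gingiva in all 11 carcinomas. The 40 genes held 10.7% to 18.4% of the counts in gingiva libraries and 2.94% to 5.85% in carcinomas, ranges that did not overlap. The other 53 abundant genes held 19.2% ± 4.29 in gingiva and 19.2% ± 4.09 in COSCC (SD, n = 7 and 11).

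The carcinomas differed in how far these 40 genes were lowered. The genes were chosen for a fall over the same carcinomas, so low values in each of them, and the separation of the groups above, are partly fixed by that choice. Each carcinoma lay below the gingiva range at 24 to 40 of the 40 genes, replicate 11 at the fewest and replicate 9 at all of them. The median of a carcinoma's log2 differences from the gingiva mean over the 40 genes ran from -1.68 in replicate 6 to -0.66 in replicate 11. Gingiva replicate 3 was lowest among gingiva libraries on this measure, at -0.25.

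**Figure D4:**
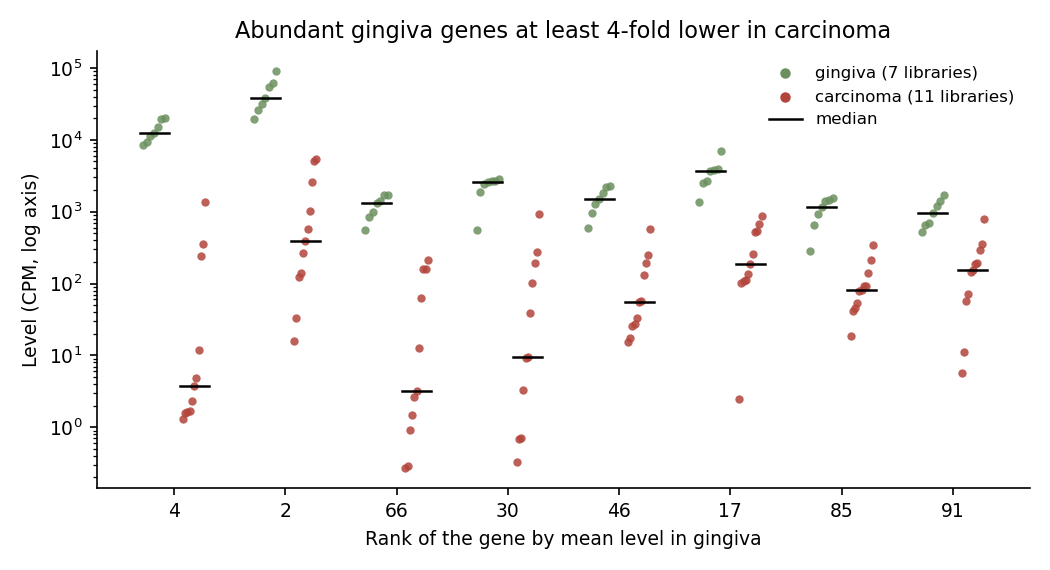
Level in CPM (vertical log axis) of the 8 genes that averaged at least 1000 CPM in gingiva and fell at least 4-fold, each point a library and each black line a group median. Genes are ordered by fold change and named by their rank of mean level in gingiva; the gene of rank 4 has a gingiva median of 12625 CPM and a carcinoma median of 3.73 CPM.

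The 8 abundant genes that fell at least 4-fold covered ranks 2 to 91 of gingiva. The gene of rank 4 ran from 8521 to 19982 CPM in gingiva, with a median of 12625. In carcinomas it ran from 1.28 to 1361 CPM, with a median of 3.73, and its groups did not overlap. It was less reduced in 3 carcinomas, at 1361 CPM in replicate 5, 350 CPM in replicate 6 and 238 CPM in replicate 11. In the other 8 carcinomas the gene was at 12.1 CPM or less. Its log2 fold change was -6.26 ± 1.43 (SE, edgeR adjusted p = 0.00427). The gene of rank 66 had a similar spread, from 556 to 1706 CPM in gingiva and from 0.271 to 211 CPM in carcinomas, the lowest from 5 counts. The gene of rank 17 stayed nearer to gingiva, with 1384 to 6929 CPM there and a carcinoma median of 189 CPM, except in replicate 3, where it was at 2.49 CPM. For the gene of rank 30 a single carcinoma, replicate 11, reached the gingiva range, at 942 CPM against 565 CPM in the lowest gingiva library. The carcinoma median of that gene was 9.54 CPM.

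Several of these genes were highest in the same carcinomas, at levels that mostly lay below the gingiva range. The highest carcinoma level was in replicate 5 for 3 of the 8 genes and in replicate 6 for 2. Replicate 11 was among the highest 3 carcinomas for 6 of the 8 and replicate 6 for 5. In contrast, replicate 3 was below a hundredth of the gingiva mean at 6 of the 8 genes, and replicates 1, 4 and 8 at 4 each. Replicates 5, 6 and 11 were below that mark at 0 of the 8. Over the 40 abundant genes that fell, however, replicate 6 had the lowest median log2 difference from gingiva, -1.68.

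Of the 10 genes with the highest gingiva level, 4 fell past the threshold, and none of the 10 rose past it. The most abundant gene took 7.25% of gingiva counts on average, and its mean was 82413 ± 29092 CPM there and 29108 ± 18630 CPM in carcinoma (SD, n = 7 and 11). Its values ran from 44341 to 116251 CPM in gingiva and from 566 to 62668 CPM in COSCC, with 9 carcinomas below the gingiva range. The difference just missed the threshold in edgeR (log2 fold change -1.50 ± 0.59 SE, adjusted p = 0.0595). It passed in DESeq2 (adjusted p = 0.0191), in limma voom (adjusted p = 0.0209), in an edgeR fit of all 23 libraries (adjusted p = 0.0445) and in edgeR without COSCC replicate 1 or 8 (adjusted p = 0.0384 and 0.0453). The gene of rank 10 also came close (edgeR adjusted p = 0.0571), and those of ranks 3, 7, 8 and 9 were far from it, at 0.170 to 0.920.

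The genes abundant in carcinoma were read in the same way. There were 68 genes that averaged 1000 CPM or more in COSCC, and 50 of these were also at that level in gingiva. Of the 68, 13 rose and 11 fell, where 16.2% of all genes tested rose and 13.5% fell. Choosing genes for a high level in carcinoma favours rises, so these counts are a description. Among the 13 rises, 6 to 11 carcinomas lay above the gingiva range and only 1 gene did so in all 11. Across the 11 carcinomas the highest level of such a gene was a median of 11.1 times the lowest.

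Of the genes described, 4 are given by identifier, 1 shared by all carcinomas and 1 carried by most of them in each direction, each the most abundant of its kind. ENSCAFG00000007322, the gene of rank 2 in gingiva, ran from 19376 to 91839 CPM in gingiva with a median of 38578. In carcinomas it ran from 15.7 to 5472 CPM with a median of 396, and the groups did not overlap. Replicates 5 and 6 were highest among carcinomas, at 5472 and 5143 CPM, and replicates 7 and 1 lowest, at 15.7 and 33.2 CPM. Group means were 46175 ± 25065 CPM for gingiva and 1434 ± 2051 CPM for carcinoma (SD, n = 7 and 11). The fitted log2 difference was -5.01 ± 0.97 (SE; adjusted p = 0.00147 in edgeR). It passed the threshold in all 29 alternatives.

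ENSCAFG00000025322, of rank 6, fell in 8 of the 11 carcinomas below the gingiva range. It ran from 5221 to 14826 CPM in gingiva with a median of 9814, and from 71.7 to 8365 CPM in COSCC with a median of 2306. Replicates 2, 11 and 8 stayed within the gingiva range, at 8365, 7694 and 6012 CPM, and replicate 3 was lowest. The log2 fold change was -1.63 ± 0.57 (SE, edgeR adjusted p = 0.0393). This call is close to the threshold. With 1 library left out in edgeR, the gene passed in 6 of 18 fits, with adjusted p-values from 0.0218 to 0.0745, and the fits that lost it were those without COSCC replicates 1, 4, 5, 6, 7, 9 or 10 and without gingiva replicates 1, 2, 4, 5 or 7. It was also lost in edgeR without a low-count filter (adjusted p = 0.0612).

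**Figure D5:**
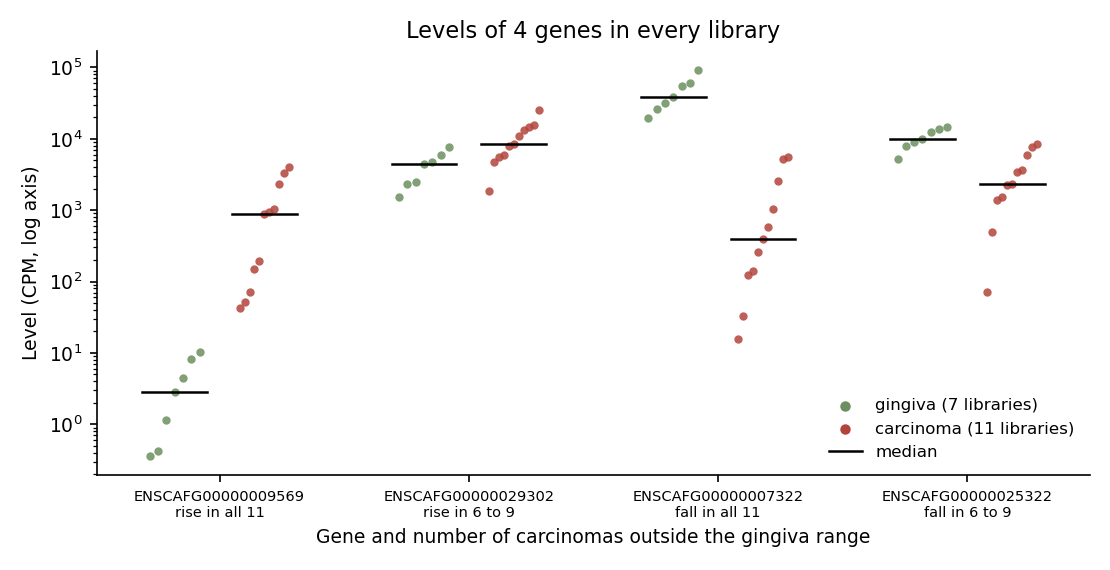
Level in CPM (vertical log axis) of 4 genes in each of the 7 gingiva (green) and 11 carcinoma (red) libraries, with black lines at group medians. The outer ranges of ENSCAFG00000009569 and ENSCAFG00000007322 do not overlap between groups, whereas those of ENSCAFG00000029302 and ENSCAFG00000025322 do.

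ENSCAFG00000009569 rose in all 11 carcinomas and had the highest COSCC mean among such genes. It ran from 0.364 to 10.4 CPM in gingiva with a median of 2.86, and from 43.3 to 4085 CPM in COSCC with a median of 895. The carcinomas spread widely, with 4085, 3280 and 2351 CPM in replicates 10, 8 and 11 and 43.3, 51.5 and 72.1 CPM in replicates 3, 5 and 6. The log2 fold change was 8.22 ± 1.31 (SE, edgeR adjusted p = 0.000368), and the gene passed in all 29 alternatives. The 3 carcinomas lowest for this gene, replicates 3, 5 and 6, were among those with the most genes above gingiva in some carcinomas only.

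ENSCAFG00000029302 was of rank 5 in COSCC and 15 in gingiva and lay above the gingiva range in 7 carcinomas. It ran from 1507 to 7792 CPM in gingiva with a median of 4370, and from 1867 to 25123 CPM in COSCC with a median of 8396. Replicate 7 was highest and replicate 11 lowest, at 1867 CPM within the gingiva range. The log2 fold change was 1.31 ± 0.45 (SE, edgeR adjusted p = 0.0369). With 1 library left out in edgeR it passed in 11 of 18 fits, with adjusted p-values from 0.0177 to 0.0765. It did not pass without COSCC replicate 7 or 9 or without gingiva replicate 1, 2, 4, 6 or 7, and it did not pass in an edgeR fit of all 23 libraries (adjusted p = 0.0685) or in limma voom (adjusted p = 0.0659). The edgeR fits without a low-count filter and with maxillary carcinomas only also lost it (adjusted p = 0.0557 and 0.0627).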

How the data were processed

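RNA was extracted from tissue in TRIzol and cleaned with a kit and DNase, ribosomal RNA was depleted, and strand-preserving libraries were built, per the labels' protocols. Raw counts per gene were deposited by the authors in a single table. STAR and the build canFam3 are named in the submitters' processing notes, without version or role. The counting program, annotation and use of strand are not given in the sources used here, so reads of overlapping or near-identical genes may have been divided between them. Each column carried the library name of 1 sample.

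Genes were kept by filterByExpr on the 18 libraries; they held 99.7% of counts. Counts were scaled by TMM and tested with edgeR 4.0.16 in R 4.3.3 (glmQLFit, glmQLFTest, a mean per group), with Benjamini-Hochberg adjustment over 14564 genes. Each SE is approximate: the size of the log2 fold change over the root of its F statistic. Ranges and correlations rest on log2 CPM, to which edgeR added a prior count of 2. The floor of 3 counts that a 0 allows is 0.186 CPM at the median library size, for counting error only. No library was a duplicate: over the 76 pairs within groups, the chi-square per gene averaged 54.3 or more.

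Members, classes and thresholds were chosen with earlier results of these data known. Lists of genes by symbol could not be applied, as 0 identifiers matched the RefSeq table (assembly UU_Cfam_GSD_1.0). Without symbols, the naming rule took, in each direction, the most abundant gene shared by all 11 carcinomas and the most abundant in which 6 to 9 left the gingiva range. Abundance was read in COSCC for rises and in gingiva for falls. Alternatives covered scaling, filters, DESeq2 1.42.0, limma 3.58.1, all 23 libraries, jaw, code, a replicate block and each library left out.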

Additional observations from a re-analysis of the deposited data

Results flagged for a closer look

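In 30 sets of values from the gingiva libraries or from the carcinomas of one jaw, the highest or lowest value was compared with its neighbour by Dixon's limit, and 6 passed it, where chance gives about 1 in 20, or 1.5. The sets are not independent, and all 6 concern gingiva replicate 3. It scored 20.02 on the first principal component, against 68.8 in the next library. Genes lower in carcinoma held 23.1% of its counts, against 31.4% in the next. It lay at least 4-fold above all of the other gingiva libraries at 45 genes, against 17 for the next. The genes of ranks 7, 8 and 9 in gingiva were highest there, at 25012, 26310 and 21340 CPM, against 8482, 9955 and 8789 CPM in the next library. Its total of 15731643 counts lay within the range of the other gingiva libraries. The 11 carcinomas as a whole were not examined in this way, being too many for the limit.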

How the results depend on the processing

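The number of changed genes stayed within 1.5 times of 4317 in 28 of 29 alternatives and was 2029 with a replicate block, 995 higher and 1034 lower, which also lost ENSCAFG00000029302 (edgeR adjusted p = 0.0882). No pairing by replicate number was apparent. Deviations of same-numbered samples correlated at -0.26 to 0.28, above 0.1 in 2 of 7 pairs, and 1 of 7 carcinomas correlated best with its own number. Such correlations cannot exclude that same-numbered samples came from the same dog. Carcinoma replicates 8 to 11 had no gingiva library of their number, so the block compared 7 pairs only. With library totals alone, 350 rises and 104 falls were shared by all 11 carcinomas and 20 abundant genes fell. With maxillary carcinomas only, 382 rises and 483 falls were shared by all 7, changes in some carcinomas numbered 276 above and 197 below gingiva, and 25 abundant genes fell; fewer carcinomas make sharing easier. Changes in some carcinomas followed the settings that define them: 1761 above and 1322 below at a margin of 1 log2 unit, 204 and 103 at 3 log2 units, 1797 above without a low-count filter and 544 below with a prior count of 0.5. At a gingiva mean of 300 CPM instead of 1000, 194 genes fell. With each library left out, genes changed ran from 3197 to 5188, shared rises from 165 to 450, shared falls from 235 to 569, changes in some carcinomas from 423 to 605 above and 279 to 372 below, and abundant genes that fell from 28 to 42. The difference between jaws in departures, -256.6 genes, ran from -328.6 to -193.6 with each mandibular carcinoma left out. Counting only departures of at least 1 log2 unit, it shrank to -20.6 genes (exact two-sided permutation test, p = 0.891). The difference between codes, FS minus MC, then went from 263.8 to 45.3 genes (exact two-sided permutation test, p = 0.742). In limma voom, as with the replicate block, falls outnumbered rises (3126 higher, 3289 lower), whereas the main fit had 2356 higher and 1961 lower. The limma voom median over all genes was -0.0029 on the log2 scale. Of the 4 identifiers, 2 kept their calls throughout and all 4 kept their direction, as did the most abundant gene of gingiva and the difference between jaws. The causes were not tested.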

Other observations

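Some genes moved in opposite directions in different carcinomas. At 42 genes, 1 or more carcinomas lay at least 4-fold above every gingiva library and others at least 4-fold below every gingiva library, while the median carcinoma stayed within the gingiva range. How a comparison of group means treats these genes was not examined, and they are values only, with no test.

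A related group lay outside the gingiva range in 9 or 10 carcinomas without passing the threshold. It held 113 genes below gingiva and 13 above. In the 113 genes the median SD was 1.30 log2 units between carcinomas and 0.47 between gingiva libraries. Limma voom with sample quality weights called 106 of the 113 and DESeq2 called 44. Of the 13 genes above gingiva they called 11 and 12.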
